A study of Mus musculus with 20 samples.

Results

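Genes of macrophage lipid handling and scavenging, 10 in all, were followed across cultures of mouse embryonic fibroblasts (MEFs), connective-tissue cells grown out of mouse embryos. All array probes that were not controls and whose accession RefSeq assigns to Msr1, Cd36, Mrc1, Abca1, Abcg1, Apoe, Nr1h3, Gpnmb, Spp1 or Lgals3 were taken, which gave 13 probes for 10 of the 17178 genes named on the array. Serum from C3H/HeN mice, an inbred strain, all of them female, had been added to the MEFs, with a culture time of 24 hours. The labels give 4 groups of 5 arrays: serum of mice that received 0 Gy and serum of mice that received 4 Gy, both marked 10 days, and serum of mice that received 0 Gy and serum of mice that received 8 Gy, both marked 20 days. The irradiation regime is written L/MDR, which the labels do not expand, and they do not say what the days count. The first pair of groups is called the 10-day set and the other the 20-day set. Whether arrays of a group stand for different cultures or donor mice is not labelled, and the p-values therefore rest on a spread between arrays that can be technical.

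Macrophages take up modified lipoproteins, dying cells and debris through scavenger receptors, which, unlike the LDL receptor, are not shut off when cholesterol builds up in the cell. The surplus is stored as droplets or returned to lipoprotein particles by ABC transporters and apolipoprotein E, under the control of the oxysterol-sensing liver X receptors (LXR). Macrophages that carry much lipid or digest much debris also make a set of secreted and lysosomal proteins, among them osteopontin, galectin-3 and GPNMB. Several of these genes are also active outside macrophages, in fibroblasts, adipocytes, bone cells and pigment cells, so that none of them marks a macrophage alone.

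Promoter stretches are shown for 3 members whose signals behaved differently: Mrc1, which differed widely between the sets, Spp1, which differed little, and Abca1, which was not called between the control cultures. The sequences are those of RefSeq on GRCm38.p6, 5′ to 3′ on the strand of the gene, and end before the annotated gene. Capitals mark GAGGAA or its reverse complement, the core bound by the myeloid factor PU.1, in Mrc1 and Spp1, and CACGTG, the E-box bound by MITF and TFEB, in Abca1.
Mrc1, plus strand, chr2:14229164-14229413: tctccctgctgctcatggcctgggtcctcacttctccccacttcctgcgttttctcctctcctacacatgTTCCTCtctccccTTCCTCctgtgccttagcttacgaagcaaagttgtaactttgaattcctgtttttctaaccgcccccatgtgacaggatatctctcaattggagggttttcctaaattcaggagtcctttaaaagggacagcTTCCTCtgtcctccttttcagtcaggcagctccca
Spp1, plus strand, chr5:104434861-104435110: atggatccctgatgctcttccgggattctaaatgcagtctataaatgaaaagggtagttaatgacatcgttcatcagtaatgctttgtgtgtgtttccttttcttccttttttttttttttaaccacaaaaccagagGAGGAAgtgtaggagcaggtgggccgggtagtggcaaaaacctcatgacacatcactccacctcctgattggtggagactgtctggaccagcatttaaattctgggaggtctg
Abca1, minus strand, chr4:53159989-53160145: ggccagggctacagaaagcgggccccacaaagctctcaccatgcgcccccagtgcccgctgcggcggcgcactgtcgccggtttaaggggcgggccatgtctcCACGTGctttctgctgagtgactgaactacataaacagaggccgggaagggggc
The RefSeq table held 12 promoter windows for 8 members (250 bases before to 50 bases after each start) and none for Msr1 and Abcg1. GAGGAA, searched on both strands, occurred in 5 of the 12 windows, of Mrc1, Spp1, Nr1h3 and Apoe, against 28.3% of all 32851 windows in the table. CACGTG occurred in 1 window (7.15% of all), and TGANTCA, the AP-1 motif, in 1 window, of Gpnmb (7.81% of all). The direct repeat bound by LXR with its partner RXR, AGGTCA given 2 times with 4 free bases between, was in 0 of the 12 windows and 0.0152% of all. A match describes letters in the window only.

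Signals are log2 processed intensities minus the 75th percentile of the array, so a value of 0 is the level of that percentile, and levels of different probes cannot be set against each other. Between 56.8% and 67.2% of all probes were well above background on an array, and no spot was saturated. The 75th percentile was 1316 ± 109 and 1104 ± 102 intensity units (SD, n = 5 arrays) with control and 4 Gy serum in the 10-day set, and 916 ± 134 and 939 ± 57 with control and 8 Gy serum in the 20-day set. Differences were tested with limma over 20226 genes, with Benjamini-Hochberg adjusted p-values and a threshold of 0.05, and every adjusted p below is from that fit unless a variant is named. The 2 sets shared none of the 7 slides and were scanned on different days, so set, slide and scan day cannot be told apart. All 15 fibroblast markers were well above background on every array, which is the labelled cell type. All 10 members passed the filter on dim probes, with 12 of their 13 probes.

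**Figure D1:**
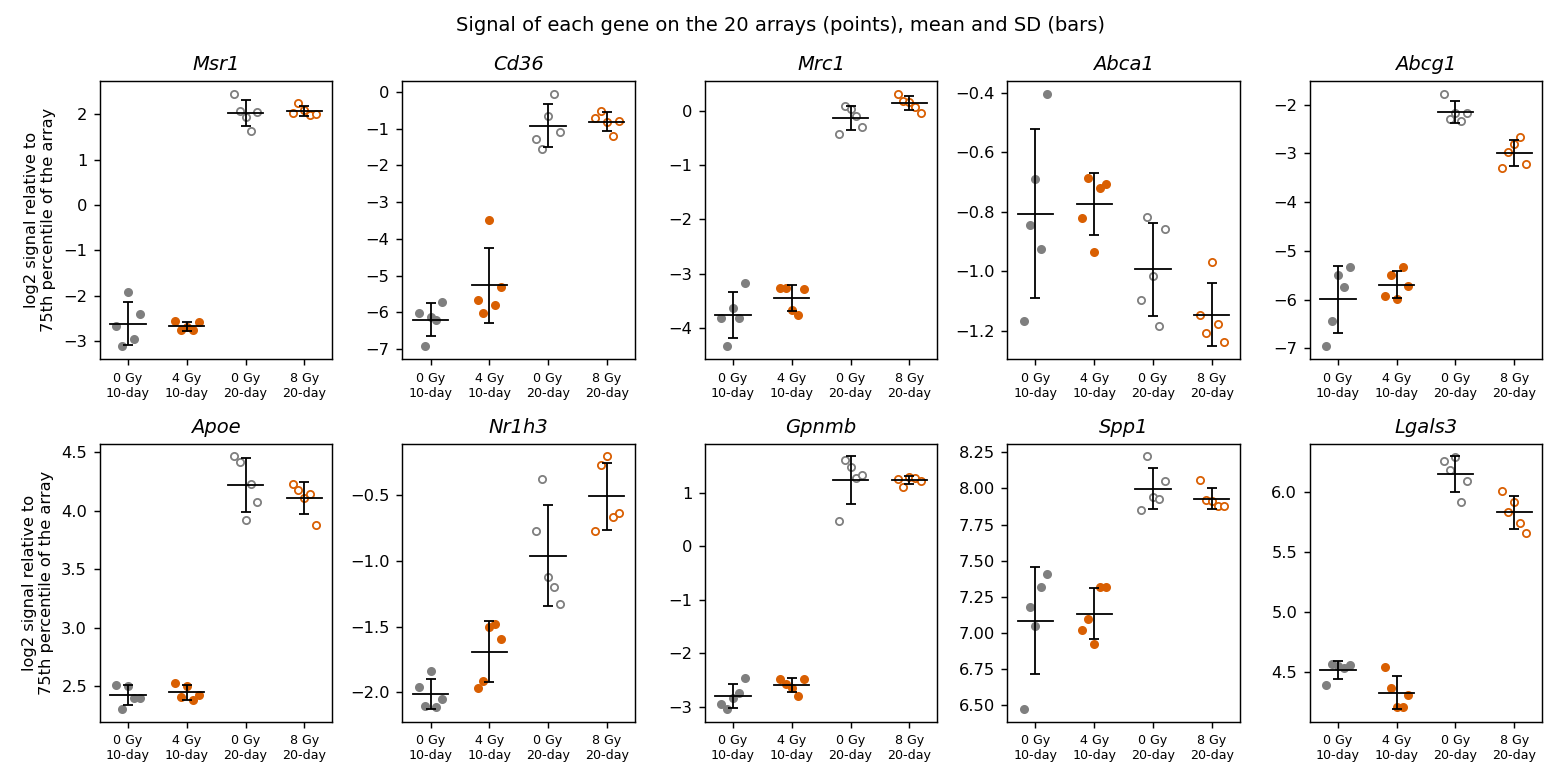
Signal of the 10 genes on each of the 20 arrays (y axis, log2 signal minus the array's 75th percentile; scales differ between panels) by serum group (x axis). Points are arrays, long bars are means and short bars are SDs (n = 5). In all panels but that of Abca1, every array of the 20-day set lies above every array of the 10-day set.

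The members differed far more between the sets than between sera. With control serum, 9 of the 10 were higher in the 20-day set and 0 were lower (limma; 9 had an unadjusted p under 0.05), where 37% of all genes were called higher and 29.4% lower. With serum of irradiated mice, 9 were higher and 1, Abca1, was lower, where 29.2% and 28.8% of all genes were called. Over 8-fold higher with control serum were 5 members, Msr1, Cd36, Mrc1, Abcg1 and Gpnmb, and 1.35% of all genes. With irradiated serum 4 of them, all but Abcg1, passed 8-fold, against 1.2% of all genes. The members were chosen with earlier results of these data known, so the counts beside these shares describe the list and do not test it. Abcg1 passed the filter on dim probes only through the 20-day groups, which favoured its higher calls in these counts. The median difference of the members was 2.70 with control serum and 2.18 with irradiated serum on the log2 scale, beside 0.07 and 0.00 for all genes. In bulk RNA, fewer cells of a type and less RNA per cell cannot be told apart. With slide as a random block in the fit, the same counts of 9 higher held for both sera.

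**Figure D2:**
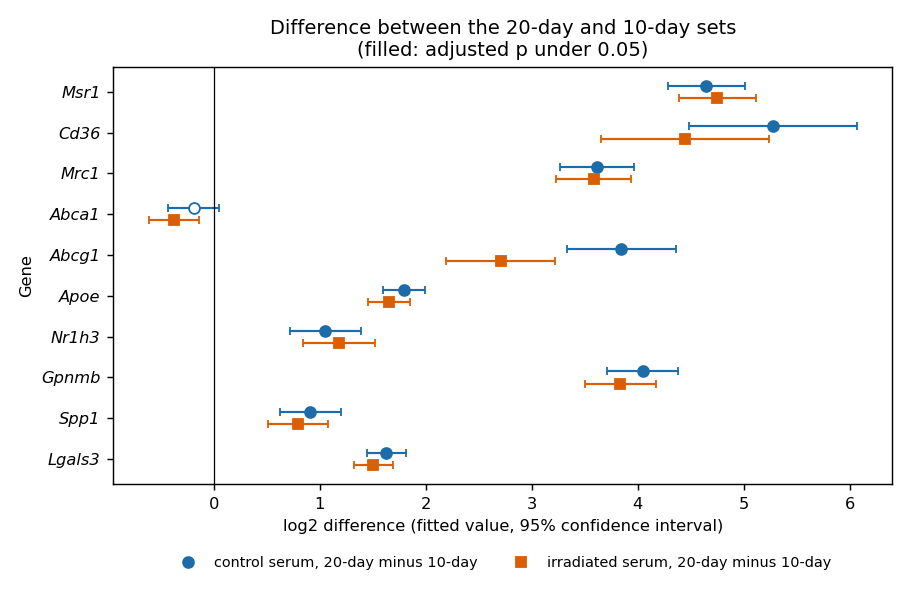
Difference between the 20-day and the 10-day set (x axis, log2, fitted value with its 95% confidence interval) for each gene (y axis), with control serum (circles) and irradiated serum (squares, 8 Gy against 4 Gy). Filled symbols passed an adjusted p of 0.05; only the control-serum circle of Abca1 is open.

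Msr1 encodes scavenger receptor A, which binds modified LDL, bacteria and debris; the gene lies at chr8:39543232-39642750 (GRCm38.p6, as for all positions below). Its brightest probe read -2.68, -3.12, -1.93, -2.96 and -2.41 with 10-day control serum and -2.56, -2.77, -2.70, -2.76 and -2.59 with 4 Gy serum. In the 20-day set it read 2.45, 2.06, 1.93, 1.64 and 2.05 with control serum and 2.02, 2.26, 2.09, 1.98 and 2.01 with 8 Gy serum. The 10-day arrays were all low and the 20-day arrays all high, with overlap between the sera of a set. The difference between the control groups was 4.64 ± 0.17 (SE, n = 5 per group), or 25.0-fold, with an adjusted p of 5.09e-14 in limma. The other 2 probes of the gene gave 4.55 ± 0.12 and 4.71 ± 0.18.

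Cd36, at chr5:17781690-17888959, encodes a class B scavenger receptor that takes up oxidised LDL and long-chain fatty acids and is also found on adipocytes and some endothelium. It was dim in the 10-day set, at -6.01, -6.92, -6.12, -6.20 and -5.71 with control serum, where 3 of 5 arrays were well above background. With 4 Gy serum it read -5.66, -6.02, -3.49, -5.80 and -5.31, and array 3 stood well above the others. The 20-day set had -1.27, -1.55, -0.65, -0.05 and -1.09 with control serum and -0.72, -0.51, -0.83, -1.21 and -0.80 with 8 Gy serum, all above every 10-day array. The control groups differed by 5.27 ± 0.38, or 38.6-fold, the widest of the 10 members and also the one with the largest standard error (adjusted p = 4.8e-10 in limma). With irradiated serum the difference was 4.44 ± 0.38.

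Mrc1, at chr2:14229414-14332023, encodes the macrophage mannose receptor, which clears glycoproteins and microbes and is often used as a sign of alternative activation. It read -3.82, -4.34, -3.62, -3.82 and -3.17 with 10-day control serum and -3.26, -3.25, -3.67, -3.76 and -3.28 with 4 Gy serum. In the 20-day set it read -0.42, 0.09, 0.03, -0.09 and -0.29 with control serum and 0.31, 0.18, 0.16, 0.07 and -0.03 with 8 Gy serum. No 10-day array reached the level of any 20-day array, while the sera of each set overlapped. The control groups differed by 3.62 ± 0.17, or 12.3-fold (adjusted p = 1.01e-12, limma).

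Among the genes that return cholesterol to lipoproteins, Abcg1 and Abca1 parted. Abcg1, at chr17:31057694-31117984, encodes a transporter that passes cholesterol to mature HDL particles. Its probe read -6.96, -6.44, -5.50, -5.74 and -5.33 with 10-day control serum and -5.92, -5.50, -6.00, -5.33 and -5.73 with 4 Gy serum, well above background on 4 of 5 arrays in each group. The 20-day arrays read -1.77, -2.29, -2.17, -2.34 and -2.17 with control serum and -3.31, -2.98, -2.80, -2.65 and -3.21 with 8 Gy serum. Each 8 Gy array was below each control array of that set, and both groups were far above the 10-day arrays. The probe passed the filter on dim probes only through these 20-day groups. The control groups differed by 3.84 ± 0.24, or 14.4-fold (adjusted p = 8.96e-11, limma), and the irradiated groups by 2.71 ± 0.24.

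Abca1, at chr4:53030789-53159988, encodes the transporter that loads cholesterol onto lipid-poor apolipoproteins and, like Abcg1, is a known LXR target. It was at -1.17, -0.84, -0.69, -0.92 and -0.40 with 10-day control serum and at -0.82, -0.69, -0.93, -0.72 and -0.71 with 4 Gy serum. With 20-day control serum it was at -1.10, -0.82, -1.02, -1.18 and -0.86, and with 8 Gy serum at -1.15, -1.21, -0.97, -1.18 and -1.24. The control groups overlapped, and the 8 Gy arrays all lay below the 4 Gy arrays. The difference between the control groups was -0.19 ± 0.11 (95% interval -0.43 to 0.05, adjusted p = 0.152, limma), and without 10-day control array 1 it was -0.28 with an adjusted p of 0.0288. Under background correction by normexp the control difference turned to 0.15. Between the irradiated groups it was -0.37 ± 0.11 (adjusted p = 0.00861, limma), a call that ended with slide as a random block (adjusted p = 0.0955).

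Apoe, at chr7:19696244-19701310, encodes the apolipoprotein that macrophages secrete to carry cholesterol away. It read 2.52, 2.31, 2.51, 2.40 and 2.41 with 10-day control serum, and 2.53, 2.41, 2.50, 2.38 and 2.42 with 4 Gy serum. In the 20-day set it read 4.46, 4.41, 3.92, 4.23 and 4.07 with control serum, and 4.23, 4.18, 4.11, 4.15 and 3.88 with 8 Gy serum. Sera of a set overlapped and the sets did not. The control groups differed by 1.79 ± 0.09, or 3.47-fold (adjusted p = 6.83e-12, limma).

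Nr1h3, at chr2:91184061-91202829, encodes LXR alpha, the nuclear receptor that switches on Abca1, Abcg1 and Apoe when oxysterols are bound. It read -1.96, -2.10, -1.84, -2.11 and -2.05 with 10-day control serum and -1.97, -1.91, -1.51, -1.48 and -1.59 with 4 Gy serum. The 20-day arrays read -0.77, -0.38, -1.12, -1.20 and -1.33 with control serum and -0.77, -0.27, -0.20, -0.66 and -0.64 with 8 Gy serum. The lowest 20-day array was only slightly above the highest 10-day array. The control groups differed by 1.05 ± 0.16, or 2.08-fold (adjusted p = 1.12e-05, limma).

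Gpnmb, at chr6:49036518-49058182, encodes a lysosomal glycoprotein also made by pigment cells and osteoclasts. Its brighter probe read -2.96, -3.05, -2.83, -2.74 and -2.46 with 10-day control serum and -2.48, -2.57, -2.65, -2.80 and -2.49 with 4 Gy serum. It read 0.47, 1.61, 1.49, 1.27 and 1.34 with 20-day control serum, where array 1 was low, and 1.26, 1.11, 1.29, 1.28 and 1.23 with 8 Gy serum. The sets were wholly apart, by 4.04 ± 0.16 or 16.5-fold between control groups (adjusted p = 1.04e-13, limma). The second probe was not well above background on any 10-day array and was so on 1 array with 20-day control serum and 4 with 8 Gy serum. Its group means of -6.33 and -8.42 with control serum gave a bound of at least 1.14-fold higher in the 20-day set, taken against the lowest signal well above background on each array. For the irradiated groups, with means of -5.37 and -8.38, the bound was at least 2.15-fold.

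Spp1, at chr5:104435111-104441053, encodes osteopontin, a secreted ligand of integrins and CD44 that fibroblasts and bone cells make as well. It read 6.47, 7.18, 7.05, 7.32 and 7.41 with 10-day control serum, where array 1 was low, and 7.02, 7.09, 6.92, 7.32 and 7.32 with 4 Gy serum. It read 7.85, 8.22, 7.94, 7.93 and 8.05 with 20-day control serum and 8.06, 7.92, 7.91, 7.88 and 7.88 with 8 Gy serum. The sets did not overlap, and the difference of 0.91 ± 0.14 between control groups, or 1.88-fold, was the smallest of the 9 members called (adjusted p = 8.57e-06, limma). It fell to 0.24 with an adjusted p of 0.149 under cyclic loess normalisation.

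Lgals3, at chr14:47373860-47386167, encodes galectin-3, a sugar-binding protein of phagocytes that fibroblasts also make. It read 4.39, 4.56, 4.55, 4.53 and 4.55 with 10-day control serum and 4.54, 4.37, 4.21, 4.20 and 4.31 with 4 Gy serum. It read 6.25, 6.18, 6.29, 5.92 and 6.09 with 20-day control serum and 6.01, 5.83, 5.92, 5.74 and 5.66 with 8 Gy serum. The arrays within each group were close together and the sets were far apart, by 1.63 ± 0.09 or 3.09-fold between control groups (adjusted p = 8.04e-12, limma).

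Markers of macrophages moved with the members between the sets. Of 17 tested macrophage markers, 14 were well above background on every array. These 14 were all higher in the 20-day control cultures (limma, same fit), where 37% of all genes were called higher. Among them were Tyrobp, the adaptor of TREM2, by 5.96 ± 0.13, and Ptprc, the leukocyte antigen CD45, by 5.45 ± 0.11. Csf1r, the receptor of the macrophage growth factor, was higher by 3.27 ± 0.13. The log2 of the summed signal of all 17 tested markers lay between 1.27 and 1.78 with 10-day control serum. It was 1.69 to 1.92 with 4 Gy serum. In the 20-day set it was 5.82 to 6.19 with control serum and 5.74 to 6.04 with 8 Gy serum. Itgam, Spi1 and Cybb, the 3 markers not among the 14, passed the filter on dim probes only through the 20-day groups. They could hardly have been lower there. Spi1, which encodes PU.1, was well above background on 0 of the 10 arrays of the 10-day set and on all 10 of the 20-day set. This gave a bound of at least 5.66-fold between the control groups, from means of -4.02 and -7.92. Cd68 had no named probe and Cx3cr1 was too dim to be tested. The part of these markers in the members' difference was not tested.

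Fibroblast markers did not move with them. Of 15 tested, 2 (Pdgfra and Lum) were higher and 10 lower in the 20-day control cultures, where 37% and 29.4% of all genes were called. Their median was -0.50 and the widest difference was that of Fn1, fibronectin, at -2.61 ± 0.09. The log2 of their summed signal was 10.23 to 10.37 and 10.14 to 10.34 in the 10-day groups and 9.60 to 9.83 and 9.79 to 9.89 in the 20-day groups. Of the other cell types that use these genes, 6 osteoclast markers were well above background on every array. Of these, 5 were higher, beside 37% of all genes, with Acp5, the tartrate-resistant phosphatase, at 5.99 ± 0.19. The osteoclast regulator Nfatc1 went the other way, by -0.24 ± 0.08. Among adipocyte markers, Fabp4, the adipocyte fatty acid carrier, was well above background on every array and higher by 3.18 ± 0.19, and the droplet coat protein Plin1, above it on all but 1 array, was higher by 1.5 ± 0.27. Adipoq, which encodes adiponectin, and Cfd were well above background on 0 of the 10-day arrays and on all 10 of the 20-day set, with bounds of at least 19.8-fold and 9.41-fold between the control groups. These 2, Cidec and the osteoclast genes Calcr and Dcstamp passed the filter only through the 20-day groups, so no count is drawn from them. Endothelial markers were lower in 3 of 4 cases, where 29.4% of all genes were called lower. Of the 3, Cdh5 passed the filter only through the 10-day groups and so could hardly have been higher in the 20-day set. The melanocyte genes Tyr, Dct and Tyrp1 were well above background on 0 arrays.

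**Figure D3:**
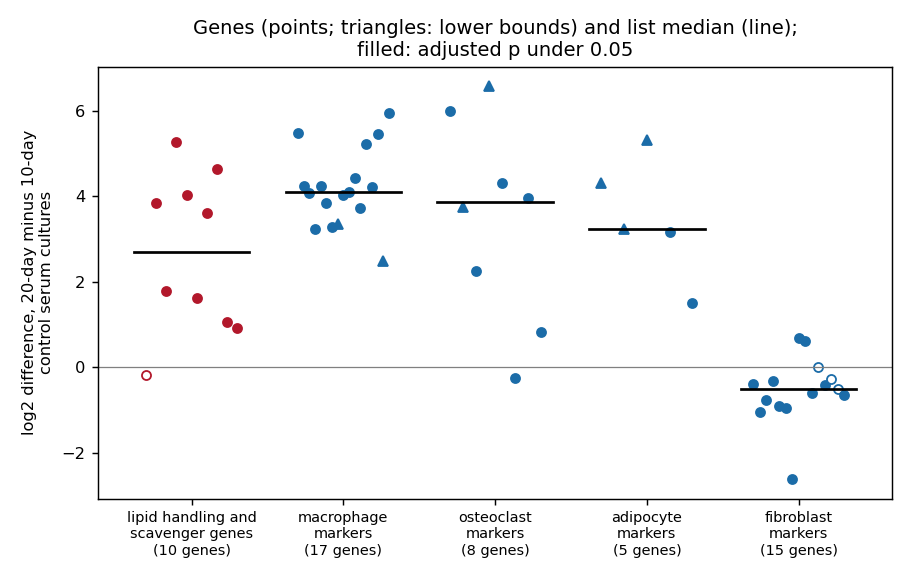
Difference between 20-day and 10-day control cultures (y axis, log2) for the 10 genes and 4 marker lists (x axis). Points are fitted values, triangles are lower bounds for genes not above background in the 10-day control cultures, lines are medians and filled symbols passed an adjusted p of 0.05. The macrophage markers lie above 2, the fibroblast markers around -0.50; lists with triangles hold genes that passed the filter through the 20-day arrays alone.

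Other genes of the same pathways, counted without the members, did not all follow. Of 14 further scavenger receptor genes tested, 5 were higher and 5 lower in the 20-day control cultures, against 37% and 29.4% of all genes. Stab1, the macrophage receptor stabilin-1, was higher by 2.95 ± 0.12, while Mrc2, the collagen receptor of fibroblasts, differed by -2.13 ± 0.08 and the ferritin receptor Scara5 by -2.60 ± 0.20. Of 20 further efflux and LXR genes, 4 were higher and 8 lower, with a median of -0.19. The LXR target Smpdl3a was higher by 1.63 ± 0.14, and the transporter Abca2 and the coactivator Ncoa1 differed by -0.82 ± 0.09 and -0.60 ± 0.07.

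Genes of lipid uptake and storage went mostly the way of Cd36. Of 24 tested, with a median of 0.79 on the log2 scale, 14 were higher and 2 lower, against 37% and 29.4% of all genes. They included Pparg, the nuclear receptor of fat cell formation and a known activator of Cd36, at 2.32 ± 0.11, Plin2, the droplet coat protein, at 1.91 ± 0.07, and Fabp4, also counted among the adipocyte markers. Of 19 further genes tied to lipid-laden macrophages, 12 were higher and 3 lower, with a median of 1.16. Among the 12, Itgax and Atp6v0d2 were well above background on no 10-day array. They passed the filter only through the 20-day groups and so could hardly have been lower. The lipid-sensing receptor Trem2 differed by 4.77 ± 0.14, its adaptor Tyrobp by 5.96 as given above, and Syngr1 by 3.25 ± 0.09. The partners of osteopontin and galectin-3 split evenly, with 5 of 14 higher and 5 lower, shares near the 37% and 29.4% of all genes. The integrin subunits Itgb5 and Itgb1 differed by -0.77 ± 0.07 and -0.60 ± 0.08 and the galectin Lgals8 by 1.01 ± 0.10. Tyrobp is also one of the macrophage markers.

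The study's own contrast was serum of irradiated against serum of non-irradiated mice. In the 20-day set 1 member rose (Nr1h3) and 2 fell (Abcg1 and Lgals3) with 8 Gy serum, where 17.3% of all genes were called higher and 28.8% lower. For a list of 10 genes these counts are near those shares. The members' median difference was -0.03, beside -0.09 for all genes. In this set each slide held 1 group only.

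Abcg1 was the widest of these, at -2.99 ± 0.27 with 8 Gy serum and -2.15 ± 0.22 with control serum (mean ± SD, n = 5), with no overlap between the arrays given above. The difference was -0.84 ± 0.24, or 1.79-fold lower, with an adjusted p of 0.00888 in limma. Both slides of 8 Gy arrays, at means of -3.03 and -2.93, were below both slides of control arrays, at -2.08 and -2.26. With slide as a random block the difference was -0.83 and its adjusted p 0.091.

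Nr1h3 had a mean of -0.51 ± 0.25 with 8 Gy serum and -0.96 ± 0.38 with control serum (SD, n = 5), and the arrays overlapped. The difference was 0.45 ± 0.16, or 1.37-fold (adjusted p = 0.0281, limma). The call was lost with slide as a random block (0.102) and with the replicate number as a block in the 20-day set alone (0.0666), both as adjusted p. It was also lost without control array 3 (adjusted p = 0.0613), 4 (0.0674) or 5 (0.0794), or without 8 Gy array 2 (0.0722) or 3 (0.0803). The control arrays on 1 slide averaged -0.76 and those on the other -1.26.

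Lgals3 fell to 5.83 ± 0.14 with 8 Gy serum from 6.15 ± 0.15 with control serum (SD, n = 5), and only the lowest control array lay within the range of the 8 Gy arrays. The difference was -0.32 ± 0.09, or 1.25-fold lower (adjusted p = 0.00624, limma). With slide as a random block the adjusted p was 0.0342. Under quantile and cyclic loess normalisation the difference shrank to -0.09 (adjusted p = 0.439) and -0.04 (0.726).

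The other 7 members were not called in the 20-day set. Their differences ran from -0.15 in Abca1 (95% interval -0.39 to 0.08) to 0.27 in Mrc1 (-0.08 to 0.62), and the interval of Cd36, from -0.68 to 0.90, was the widest. Msr1 differed by 0.05 ± 0.17, Gpnmb by -6e-04 ± 0.16, Spp1 by -0.07 ± 0.14 and Apoe by -0.11 ± 0.09. The intervals of Cd36 and Mrc1 reach the 0.45 seen in Nr1h3 and those of the other 5 do not. Under at least 1 alternative processing the sign turned in Msr1, Cd36, Apoe, Gpnmb and Spp1. Mrc1 was called higher under normexp, at 0.61 (adjusted p = 0.000476). Abca1 was called lower under normexp, at -0.32 (0.0449), and, with Apoe, when arrays were scaled to their medians, at -0.30 (0.033) and -0.26 (0.0437).

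**Figure D4:**
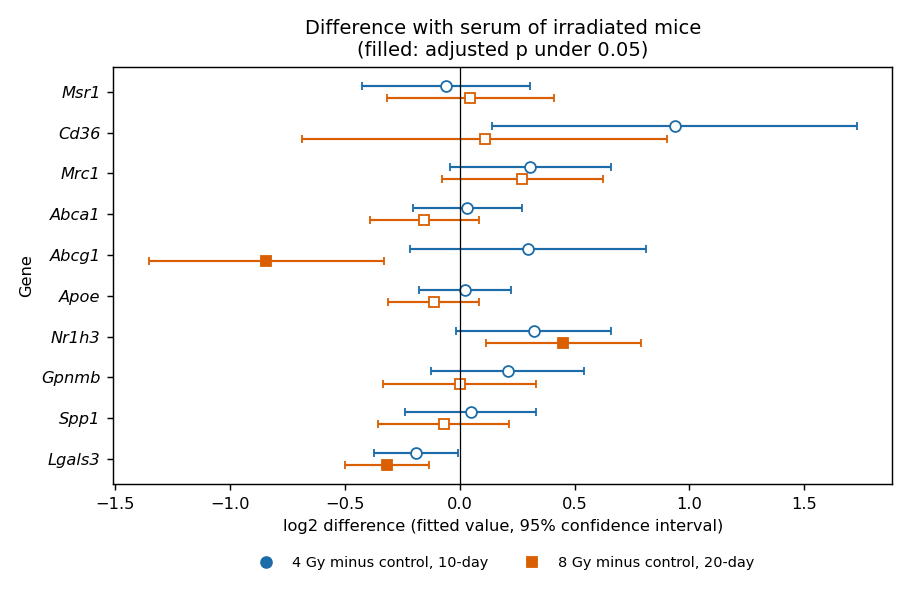
Difference between cultures with serum of irradiated and non-irradiated mice (x axis, log2, fitted value with its 95% confidence interval) for each gene (y axis), at 4 Gy in the 10-day set (circles) and 8 Gy in the 20-day set (squares). Filled symbols, those of Abcg1, Nr1h3 and Lgals3 at 8 Gy, passed an adjusted p of 0.05.

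In the 10-day set 0 of the 10 members rose or fell with 4 Gy serum, where 4.5% of all genes were called higher and 1.47% lower (limma). Those all-gene calls fell to 0 higher and 1 lower of 20226 with slide as a random block, with 1666 genes at an unadjusted p under 0.05. At an unadjusted p under 0.05 in the fit without the block there were 2 members, Cd36 and Lgals3. Cd36 averaged -5.26 ± 1.02 with 4 Gy serum and -6.19 ± 0.45 with control serum (SD, n = 5), a difference of 0.94 ± 0.38 (adjusted p = 0.148). Without the high 4 Gy array 3 the difference was 0.49 (adjusted p = 0.384). Lgals3 differed by -0.19 ± 0.09 (adjusted p = 0.204) and Nr1h3 by 0.32 ± 0.16 (adjusted p = 0.25), the same directions as with 8 Gy serum. The 4 Gy arrays of Nr1h3 averaged -1.94 on slide 2 and -1.53 on slide 3, and those of Lgals3 4.45 and 4.24. Slide 2 was the only one with both groups, 2 arrays with 4 Gy serum and 1 with control serum. There Cd36 differed by -0.13, Lgals3 by -0.10, Nr1h3 by 0.11 and Abcg1 by -0.38, with no replicate of the control array.

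The response to 8 Gy serum differed from that to 4 Gy serum in 1 member, Abcg1, which was also the only 1 with an unadjusted p under 0.05, where 22% of all genes were called lower and 12.2% higher. Abcg1 was dim in the 10-day set, well above background on 4 of 5 arrays in each group. It differed by 0.30 ± 0.24 with 4 Gy serum and by -0.84 ± 0.24 with 8 Gy serum. The difference of the responses was -1.14 ± 0.35 (adjusted p = 0.0163, limma). With slide as a random block it was -0.89 (adjusted p = 0.215). Without 20-day control array 1 there were 2 such members in place of 1. Dose, days and slide changed together between the sets, so their parts cannot be told apart.

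Among the other pathway genes, 4 Gy serum moved 1, the scavenger receptor Stab2, which is known for clearing hyaluronan in liver sinusoids. It was higher by 1.45 ± 0.30 (adjusted p = 0.0115, limma) and was well above background on 3 of 5 control and all 5 of the 4 Gy arrays. The call was lost with slide as a random block, where 0 genes were called higher. With 8 Gy serum, 5 of 14 scavenger receptor genes were higher and 1 lower, including Mrc2 at 0.61 ± 0.08, Stab1 at 0.48 ± 0.12 and Scara5 at 0.92 ± 0.20. The efflux and LXR genes split, with 5 of 20 higher and 5 lower, against 17.3% and 28.8% of all genes. With slide as a random block 1 was higher and 2 lower. Pltp, the phospholipid transfer protein, was higher by 0.39 ± 0.10, while Mylip, which marks the LDL receptor for breakdown, and Arl4c differed by -0.56 ± 0.08 and -0.44 ± 0.11. These 3 are described as LXR targets in macrophages.

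Among lipid uptake and storage genes 3 of 24 were higher and 9 lower with 8 Gy serum, again beside 17.3% and 28.8% of all genes (1 and 7 with slide as a random block). Adipocyte markers differed too: Adipoq by -0.81 ± 0.29 (adjusted p = 0.031, limma) and Fabp4, also counted in the list, by -0.49 ± 0.19 (adjusted p = 0.0428, limma), both not called with the random block. The log2 of the adipocyte markers' summed signal was 5.06 to 6.26 (median 5.49) with control serum. With 8 Gy serum it was 5.02 to 5.30 (median 5.06). Adipoq, Cidec and Cfd, at means of -2.22, -1.21 and -3.29 with 20-day control serum, added little to this sum. Fabp4 is part of it, so the sum is no separate reading from that gene. The part of the adipocyte markers in the list's count was not tested. The acid ceramidase Asah1 differed by -0.87 ± 0.08 and the droplet protein Plin3 by -0.41 ± 0.07, whereas Psap, the precursor of the saposins, was higher by 0.54 ± 0.08. Of the 19 genes tied to lipid-laden macrophages 3 were higher and 5 lower. The lysosomal regulators Mitf and Tfe3, which are related factors and known activators of Gpnmb, were higher by 0.72 ± 0.10 and 1.39 ± 0.20, and the tetraspanin Cd63 differed by -0.37 ± 0.06. Gpnmb itself was not called. Of 14 partners of osteopontin and galectin-3, 4 were called, all lower, a share near the 28.8% of all genes called lower (2 with slide as a random block), among them the integrin subunits Itgav, by -0.60 ± 0.12, and Itga9, by -0.28 ± 0.11, and Lgals8, by -0.42 ± 0.10. Of 17 macrophage markers 4 were called with 8 Gy serum, all lower, where 28.8% of all genes were (3 with slide as a random block). With 4 Gy serum 3 markers (Lyz2, Cd14 and C1qb) were called higher, where 4.5% of all genes were, and 0 with the random block.

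Across the 20 arrays the 9 members other than Abca1 varied together, with Pearson correlations of 0.80 to 0.99 in their 36 pairs (median 0.95). All pairs share the difference between the sets and the same arrays. After each group's mean was taken off, the correlations of the same pairs ran from -0.35 to 0.69. Abca1 correlated with the others at -0.66 to -0.35 over all arrays and at -0.26 to 0.73 after group means were taken off, the highest with Spp1. The named gene most like each member over the arrays is given with its correlation. For Msr1 these were Fcgr2b (r = 0.996, and 0.72 within groups) and Fcgr3, for Mrc1 they were Fcgr3 and Fcer1g (both 0.99), for Cd36 Fcgr4 (0.981) and Tnfaip8l2 (0.979), and for Apoe Mpeg1 (0.994) and Calcr (0.994). Gpnmb was most like Snx20 (0.997, and 0.86 within groups) and Alox5 (0.995), Abcg1 like Spn (0.987) and Tm6sf1 (0.984), and Lgals3 like Sirpa (0.99) and Syngr1 (0.99). Nr1h3 was most like Cdc42ep2 (0.973) and Tle6 (0.969), and Spp1 like Akr1c18 (0.954) and Gpr84 (0.95), each with fewer close genes than the rest: 9 and 1 of 12727 named genes exceeded 0.95, against 197 to 550 for the other members but Abca1. Abca1 exceeded it with 0, and its nearest were Thbs4 (0.798) and Fam167a (0.793).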

How the data were processed

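Signals of 20 Agilent 1-colour arrays (Cy3) were analysed, in 4 groups of 5 taken from the sample titles. Per the file headers, the deposited scanner files hold processed intensity after background subtraction and detrending within the array, not scaled between arrays, from Agilent Feature Extraction 10.5.1.1 (11.0 per the submitters' processing notes). The deposited files also hold spot and background medians, an intensity each, and marks of another type (0 or 1). The authors' deposited series table holds log2 values, which correlated at 0.994 to 0.999 with the values used here after each probe was centred within its set; it is centred by probe, so the sets were not compared in it.

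Marked spots (50 to 181 of 43379 per array) were left out, spots of a probe were averaged, and log2 intensity minus the 75th percentile over probes was taken. Accessions matched RefSeq symbols (GRCm38.p6) for 24844 of 41174 probes. Probes were tested where some group had all 5 arrays well above background (26233), and the brightest stood for its gene (20226 genes, unnamed probes included). limma 3.58.1 in R 4.3.3 was fitted to all arrays with a mean per group (lmFit, eBayes, two-sided, Benjamini-Hochberg over all genes), after a test on simulated data. The number of arrays limits the precision. Alternatives were other scalings, normexp background correction (offset 50), other filters and probe choices, slide and replicate blocks, the authors' table and leaving out each array; the replicate block in the 20-day set alone was added after the data were seen.

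The members, the pathway and marker lists, and the rule for named genes were chosen with earlier results of these data known. Named were all members, and from each pathway list the genes called with 4 Gy serum (at most 4) and the 3 with the smallest p called with 8 Gy serum and between control groups; marker genes were picked as examples after their values were seen. Replicate numbers were checked for pairing through correlations of deviations from group means. In the 20-day set all 5 same-numbered pairs were over 0.1 (0.14 to 0.41), and its slides split by the same numbers; in the 10-day set 3 of 5 were.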

Additional observations from a re-analysis of the deposited data

Results flagged for a closer look

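In 3 of the 40 groups of 5 arrays checked (10 genes in 4 groups), 1 array stood farther from the others than Dixon's 95% limit allows, where chance gives about 1 in 20 groups. Cd36 read -3.49 on 4 Gy array 3, and the nearest array of that group read -5.31. Spp1 read 8.06 on 8 Gy array 1, next to 7.92 on the nearest array. Lgals3 read 4.39 on 10-day control array 1, next to 4.53. The response of Abcg1 to 8 Gy serum differed from its response to 4 Gy serum by -1.14 (limma interaction, adjusted p = 0.0163), with 5 arrays per group. Dose, days and slide cannot be told apart in this difference. The gene was well above background on only 4 of 5 arrays in each 10-day group.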

How the results depend on the processing

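Between the sets, 9 members were called higher with either serum under each alternative run on all 10 members, except 8 with control serum under cyclic loess, without Spp1. Lower calls went from 0 to 1 with control serum when 10-day control array 1 was left out (range 0 to 1), and from 1 to 0 with irradiated serum with slide as a random block. The filter on all 20 arrays leaves Cd36 and Abcg1 untested, and 7 of the other 8 members were called higher with either serum.

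With 8 Gy serum the single higher call, Nr1h3, went to 0 under array median scaling, in a fit of the 2 groups alone, with slide as a random block, in the authors' table and with a replicate block in the 20-day set alone, and was 0 to 1 with 1 array left out. Normexp took the call from Nr1h3 and gave it to Mrc1. The 2 lower calls became 4 under array median scaling, 3 under normexp and 1 under quantile, cyclic loess, the all-array filter and the random block. The lower call of the difference of responses became 2 under normexp and 0 under the all-array filter and the random block (1 to 2 with 1 array left out). The planned replicate block over all groups kept each count of member calls (1 higher and 2 lower with 8 Gy serum; adjusted p of Nr1h3 0.0349, Abcg1 0.0116 and Lgals3 0.00581), and the 20-day block changed no call but that of Nr1h3 (0.0666). The cause of each change was not tested.

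Small uncalled differences turned sign. With 4 Gy serum these were Msr1 with probe means (0.055); Cd36, Mrc1, Abca1, Abcg1, Gpnmb and Spp1 with slide as a fixed block (-0.13, -0.091, -0.35, -0.38, -0.071 and -0.35); Abca1, Apoe and Spp1 under array medians (-0.042, -0.051 and -0.026); Abca1 and Spp1 with the random block (-0.10 and -0.089); and Apoe under normexp (-0.046). With 1 array left out, Msr1 ranged from -0.18 to 0.12, Abca1 from -0.058 to 0.13, Apoe from -0.0067 to 0.046 and Spp1 from -0.11 to 0.13. With 8 Gy serum they were Msr1 and Cd36 under array medians (-0.095 and -0.033), Msr1 under normexp (-0.048), Cd36 under cyclic loess (-0.0052), Apoe under quantile and cyclic loess (0.14 and 0.081), Spp1 under quantile, cyclic loess, marked spots kept and the authors' table (0.040, 0.31, 0.021 and 0.0215), and Gpnmb under quantile, normexp, marked spots kept and the authors' table (0.062, 0.083, 0.0102 and 0.0105). With 1 array left out, Msr1 ranged from -0.050 to 0.15, Cd36 from -0.048 to 0.33 and Gpnmb from -0.19 to 0.093. Between control groups Abca1 turned to 0.15 under normexp.

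Scaling to array medians moved the median of all genes with 8 Gy serum from -0.09 to -0.24 and the calls from 3493 higher and 5818 lower to 2364 and 8086. With 4 Gy serum the calls went from 911 and 297 to 769 and 594 (867 and 537 under quantile, 1647 and 929 in a fit of the 2 groups alone), and to 0 and 1 with slide as a random block and 1 and 19 with slide as a fixed block. Leaving out 1 array gave 199 to 1374 higher and 20 to 746 lower, with 199 and 20 without 4 Gy array 3, 199 and 25 without 4 Gy array 4, 279 and 40 without 4 Gy array 5 and 284 and 41 without control array 2. The random block left 2121 higher and 3791 lower with 8 Gy serum. Normexp moved the median between control groups from 0.07 to 0.22, with 8999 higher and 4253 lower in place of 7473 and 5949, and between irradiated groups 6361 and 3629 in place of 5911 and 5824. Array medians moved it to 0.20 between control groups. Dim signals of Cd36, Abcg1 and the second Gpnmb probe limit the 10-day comparisons.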

Other observations

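Marker lists of other cells moved in both directions between the control cultures. The endothelial genes Cdh5, Kdr and Emcn were lower in the 20-day set and Tek was not called (0.12 ± 0.18). Of these, Cdh5 passed the filter only through the 10-day groups. Cdh5, the cadherin of endothelial junctions, stood well above background throughout the 10-day set and on 0 arrays of the 20-day set, which gave a bound of at least 2.17-fold between the control groups (means of -4.94 and -7.27, limma adjusted p = 1.04e-09). Of 4 osteoblast markers tested, with a median of -0.35, 1 was higher and 2 lower, against 37% and 29.4% of all genes. The higher one, Ibsp, was well above background on only 1 array with 10-day and 2 with 20-day control serum. It passed the filter only through the 8 Gy group. Of 3 neutrophil markers, 2 were higher, beside 37% of all genes. S100a8, which passed the filter only through the 20-day groups, was among them, by at least 4.83-fold (means of -4.25 and -8.13). It was well above background on 0 arrays with 10-day control serum, 2 with 4 Gy serum and all 10 of the 20-day set. Elane was so on 0 of the 20 arrays. The only lymphocyte marker bright enough to test, Cd3e, was not called (-0.29).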
